A study of Homo sapiens with 6 samples.

Results

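Heat shock proteins and their DNAJ co-chaperones are the machinery with which a cell folds, refolds and sorts its proteins, and their transcripts were followed here in human osteosarcoma cells after knockdown of FUBP1. The family was taken as every protein-coding gene whose symbol belongs to the HSPA, HSPB, HSPD, HSPE, HSPH or HSP90 series or to DNAJA, DNAJB or DNAJC. This rule gave 73 gene records with 72 symbols among the 58735 genes of the table, since HSPA14 stands there as 2 records that share 460 exonic bases. The cells were labelled MG63, an established human osteosarcoma line. They were transfected with siRNA against FUBP1, a single-strand DNA-binding regulator of transcription (siFUBP1, 3 samples), or with a negative control (siMock, 3 samples), and RNA was taken after 48 h. All 6 samples are of the same line, and nothing else differed between the groups by the labels. The knockdown lowers FUBP1 only in part and for a short time, and the siRNA that was used among those of the study is not given in the sources used here.

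The members of the family work in relays. An HSP70 (HSPA) holds exposed stretches of an unfolded protein, a J-protein (DNAJ) delivers the client and sets off ATP hydrolysis, and a nucleotide exchange factor such as HSPH1 or HSPA4 releases it. HSP90 completes the maturation of kinases and receptors, small heat shock proteins (HSPB) keep aggregating proteins in a state that can be refolded, and the HSPD1 and HSPE1 chaperonin encloses proteins inside the mitochondrion. The cytosol, the endoplasmic reticulum (ER) and the mitochondrion each have an HSP70 of their own: HSPA8 and the stress-inducible HSPA1A and HSPA1B in the cytosol, HSPA5 (BiP) in the ER and HSPA9 (mortalin) in the mitochondrion. By common knowledge, heat shock factor 1 drives the cytosolic set through heat shock elements, and the unfolded protein response drives the ER set through ER stress elements.

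The promoter stretches that hold these elements are shown because textbook accounts tell the cytosolic from the ER set by them. Promoters are the 300 bases from 250 before to 50 after a start site in RefSeq on GRCh38.p14, and 64 of the 72 symbols had a record. DNAJC1, DNAJC22, DNAJC24, DNAJC5B, HSPA12B, HSPA14, HSPB11 and HSPB2 did not. Capitals mark the matched letters: the heat shock element as GAANNTTCNNGAA or TTCNNGAANNTTC (3 units) for HSPA8, the HSP90 genes and HSPD1, the shorter GAANNTTC or TTCNNGAA (2 units) for HSPA1A, HSPA1B and DNAJB1, and the ER stress element as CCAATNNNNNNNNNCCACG for the ER genes. Both strands were searched, and every 3-unit match contains 2-unit matches. Each line gives 5′ to 3′ along the gene's strand.
HSPA8, chr11:123062351-123062369, minus strand: cttGAAAGTTCCAGAAcgc
HSPA8, chr11:123062176-123062194, minus strand: cccTTCTGGAAGGTTCtaa
HSP90AA1, chr14:102087117-102087135, minus strand: ttcTTCCGGAAGGTTCggg
HSP90AB1, chr6:44247773-44247795, plus strand: gcaggTTCTGGAAGATTCatggg
HSP90AB1, chr6:44247826-44247848, plus strand: gattgTTCTGGAAGCTTCtggat
HSPD1, chr2:197500065-197500088, minus strand: attTTCTGGAAAGTTCTGGAAccg
HSPA1A, chr6:31815432-31815449, plus strand: ccctgGAATATTCccgac
HSPA1B, chr6:31827628-31827645, plus strand: ccctgGAATATTCccgac
DNAJB1, chr19:14518462-14518479, minus strand: gggcgGAAGGTTCtggag
DNAJB1, chr19:14518432-14518449, minus strand: ctctgGAAGCTTCcgccg
HSPA5, chr9:125241386-125241414, minus strand: cttcaCCAATCGGCGGCCTCCACGacggg
HSP90B1, chr12:103930213-103930237, plus strand: tgaCCAATCGGAAGGAGCCACGctt
HSP90B1, chr12:103930318-103930342, plus strand: gtgCGTGGTGCGGCGCGATTGGtgg

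The last line of HSP90B1 reads the ER stress element on the opposite strand. A 3-unit heat shock element was found in the promoters of 7 of the 64 members (HSPA8, HSP90AA1, HSP90AB1, HSPD1, DNAJA1, DNAJB6 and HSPA6), against 0.608% of all 27305 symbols with a promoter and 0.490% of all 35116 promoters. A 2-unit element was found in 22 of the 64 members, against 16.2% of all symbols and 13.5% of all promoters. The ER stress element was found in HSPA5 and HSP90B1 alone among the members, against 0.0916% of all symbols and 0.0769% of all promoters. The letters TGATGNAA, the composite element read by C/EBP and ATF factors, were found in HSPA4L and DNAJA4, against 4.46% of all symbols and 3.62% of all promoters. These matches describe the letters in the window and are not measured binding sites.

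Total counts lay between 16309900 and 17484313 per sample. FUBP1, the targeted gene, stood at 237, 255 and 274 CPM (counts scaled to the TMM-normalised library size) in siMock and at 44.3, 43.4 and 53.0 CPM in siFUBP1, as the group labels say. Of the osteosarcoma markers looked at, COL1A1 and VIM were counted in every sample, while COL1A2 and IBSP had 0 counts throughout and SPARC, ALPL, BGLAP and SPP1 were near 0. The cell type named by the labels was therefore not shown by those defining markers. All 3 that could be tested moved between the groups by edgeR: COL1A1 fell (-1.31, adjusted p = 1.83e-13), VIM rose (0.38, adjusted p = 0.000210), and RUNX2 rose from 0.384 to 0.490 CPM in siMock to 2.23 to 5.59 CPM in siFUBP1. Their part in the chaperone values was not tested. A set of 7 markers of leukocytes, endothelium and epithelium summed to between 5.02 and 6.99 CPM, with EPCAM making up most of it, and neither of the 2 that were tested was called. The labels do not say whether the 3 samples of a group were separate cultures, so p-values measure the spread between these samples only.

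Of the 73 members, 65 had enough reads to be tested by edgeR's quasi-likelihood test. At an adjusted p below 0.05, 27 members were higher and 21 were lower in siFUBP1, and 17 were not called. Among all 16116 genes tested, 30.1% were higher and 30.1% were lower, and 60.2% were called in either direction. The members were thus called higher at 41.5% and lower at 32.3%, with a median log2 fold change of 0.05 beside 0.00 for all genes. Past a log2 fold change of 1, 2 members were higher (DNAJB5 and DNAJC25) and 7 were lower (HSPA1A, HSPB3, HSPA1B, HSPA2, HSPA8, DNAJA1 and HSPB7), where the shares over all genes were 8.16% and 9.13%. The 3 samples of one group lay wholly above those of the other in 53 of the 65 members (29 higher and 24 lower in siFUBP1), and over all genes tested this was so for 63.9%.

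The members were grouped by compartment, and no test was run over these groups or over the families. The shares over all genes are again 30.1% higher and 30.1% lower. Of the 25 tested members of the cytosol and nucleus, 13 fell (52.0%) and 7 rose (28.0%), with a median log2 fold change of -0.20, and all 7 members that fell by more than 1 were of this compartment. Of the 7 members of the ER lumen, 5 rose and none fell, with a median of 0.26, whereas a correction for GC content and length gave 4 and 1. Of the 10 mitochondrial members, 4 rose (40.0%) and 1 fell, with a median of 0.32. The 6 members of the ER membrane gave 3 rises and 2 falls, and the 6 of the ribosome, nucleus and RNA group also gave 3 and 2. Of the 4 tested members of vesicles and endosomes, 3 rose and 1 fell, with the highest median of all compartments (0.44). The 7 tested members placed in no such compartment gave 2 rises and 2 falls, with the lowest median (-0.45). By protein family, 4 of 5 tested small heat shock proteins fell and none rose, while 15 of 26 tested DNAJC proteins rose and 6 fell. Both chaperonin subunits rose, and HSP70 and HSP110 members were even, at 6 and 6 of 15.

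**Figure D1:**
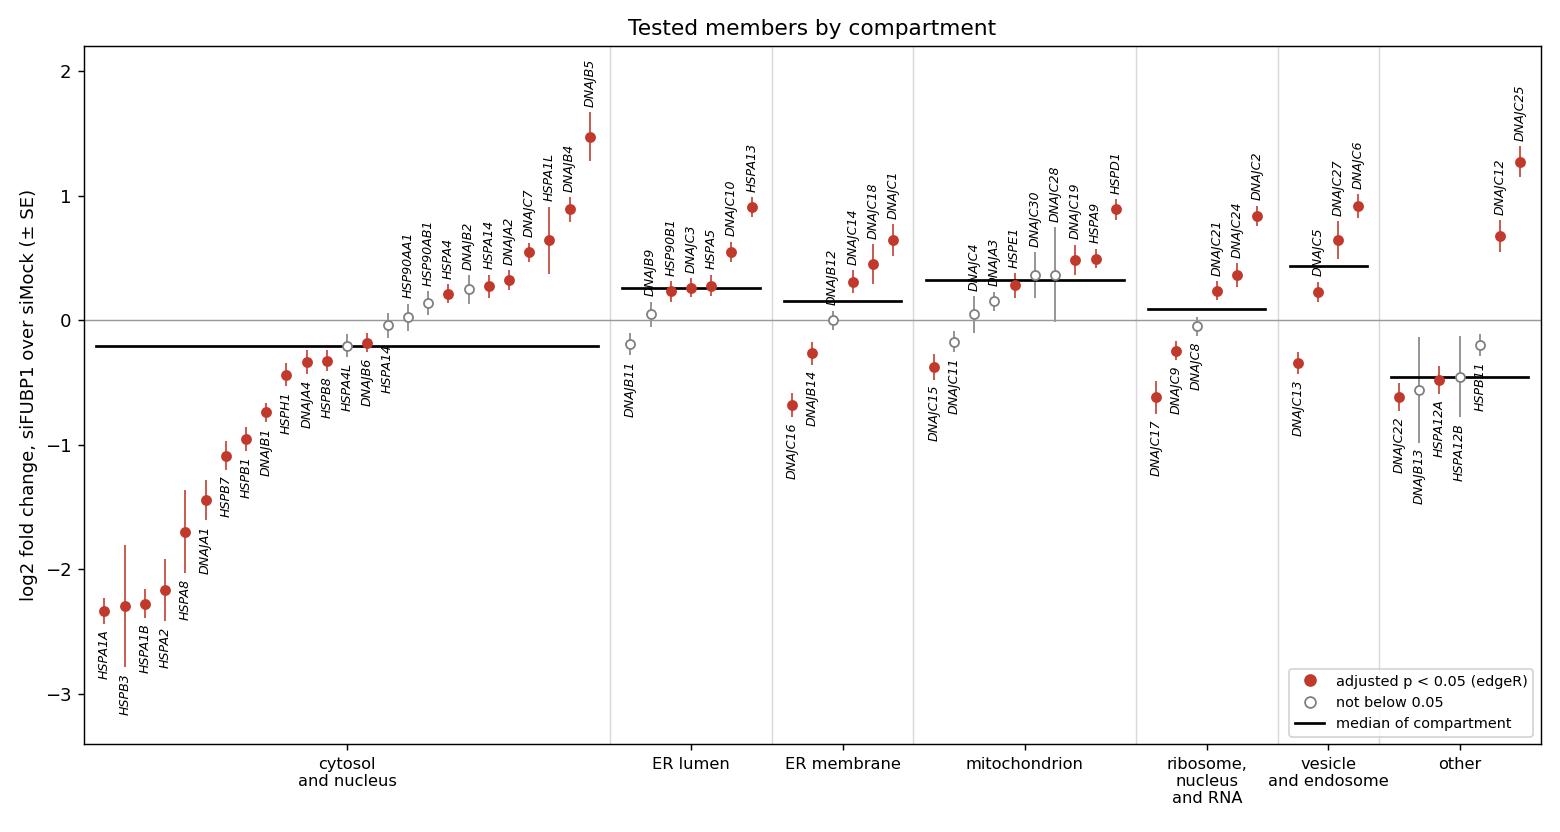
Log2 fold change of siFUBP1 over siMock (y axis) with its standard error for the 65 tested members, grouped by compartment (x axis). Filled red points were called at an adjusted p below 0.05 by edgeR, open grey points were not, and the black bar is the median of the compartment, which is -0.20 in the cytosol and nucleus and 0.26 in the ER lumen.

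HSPA8, HSPA1A, HSPA1B and HSPA2 were the cytosolic HSP70s that fell, each by more than 1 on the log2 scale. HSPA8 (ENSG00000109971, chromosome 11, 123057489 to 123063230, minus strand), the constitutive HSP70 that also uncoats clathrin vesicles, stood at 1042, 1114 and 1231 CPM in siMock and at 350.0, 214 and 481 CPM in siFUBP1. The lowest control lay far above the highest knockdown sample. The knockdown samples were spread wider than the controls (SD 133 against 95.3 CPM), and more so relative to their mean. The log2 fold change was -1.70 (SE 0.34, adjusted p = 0.0118, edgeR's quasi-likelihood F test adjusted by Benjamini-Hochberg), and 30.8% of the control mean was left. A bulk library cannot tell fewer cells that carry a transcript from less of it in each cell. Its 17 annotated pseudogenes held counts equal to 0.122% of its own, so few reads were assigned to those copies.

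HSPA1A and HSPA1B encode the HSP70 that heat and proteotoxic stress induce, and they lie close together on chromosome 6 (31815464 to 31817946 and 31827735 to 31830255, plus strand). HSPA1A was counted at 83.8, 90.8 and 73.4 CPM in siMock and at 16.0, 14.6 and 18.6 CPM in siFUBP1. HSPA1B was counted at 51.0, 50.1 and 43.7 CPM in siMock and at 10.6, 8.24 and 11.1 CPM in siFUBP1. Both fell in every knockdown sample to about 20% of their control mean, with little spread. Their log2 fold changes were -2.33 (SE 0.10, adjusted p = 7.11e-16) and -2.27 (SE 0.11, adjusted p = 5.47e-15) by the same edgeR test. The copies are so alike that 69.9% of the 100-base stretches of the HSPA1A transcript also occur in HSPA1B, and their promoters were identical at 92.6% of aligned bases, so the split of reads between them is uncertain. Counted as a single gene, they gave -2.31.

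HSPA2, an HSP70 best known from the testis, was much scarcer. It had 9.80, 7.30 and 8.52 CPM in siMock and 2.25, 0.865 and 2.58 CPM in siFUBP1, and its log2 fold change was -2.17 (SE 0.25, adjusted p = 1.34e-07, edgeR). Not every cytosolic HSP70 fell: HSPA1L, a relative of HSPA1A chosen after its values were seen, was called higher (0.64, SE 0.27, adjusted p = 0.0448, edgeR), though not in 8 of 15 alternatives. HSPH1 and HSPA4, exchange factors of the cytosolic HSP70, parted. HSPA4L, a relative of HSPA4 named after its values were seen, was not called (-0.20, adjusted p = 0.0707, edgeR), nor in 11 of 15 alternatives. HSPH1 (HSP110) went from 148, 158 and 160.2 CPM to 102, 106 and 136 CPM, a log2 fold change of -0.44 (SE 0.09, adjusted p = 0.000209, edgeR). HSPA4, its relative, went the other way, from 289.8, 304 and 316 CPM to 347, 342 and 366 CPM. That rise of 0.21 (SE 0.08, adjusted p = 0.0173, edgeR) was small, and it was no longer called without siMock replicate 1 (0.18), without siFUBP1 replicate 3 (0.18) or with a correction for GC and length (0.13).

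The J-proteins that serve the cytosolic HSP70 also parted. DNAJA1, which guides proteins to membranes and to refolding, stood at 184, 196 and 221 CPM in siMock and at 71.0, 57.1 and 92.7 CPM in siFUBP1. DNAJB1 (HSP40), the partner of HSP70 in dissolving aggregates, stood at 119, 113 and 111 CPM in siMock and at 70.2, 66.0 and 69.1 CPM in siFUBP1. Neither gene's groups overlapped, and the log2 fold changes were -1.44 (SE 0.16, adjusted p = 4.54e-05) and -0.74 (SE 0.08, adjusted p = 5.64e-09) by edgeR. DNAJB1 shares 211 exonic bases with TECR on the opposite strand, and the library kit does not mark strand. By contrast, DNAJB4, a close relative of DNAJB1, rose from 17.0, 18.7 and 20.8 CPM to 34.5, 34.0 and 36.0 CPM (log2 fold change 0.89, SE 0.10, adjusted p = 2.44e-08, edgeR). DNAJB5, a rare J-protein of the same class, rose from 2.88, 2.88 and 4.68 CPM to 9.41, 11.5 and 8.02 CPM, which is the largest rise among the tested members (1.47, SE 0.20, adjusted p = 4.03e-07, edgeR). DNAJB4 (chromosome 1, 77979175 to 78017964, plus strand) lies head to head with the targeted gene FUBP1 (77944055 to 77979110, minus strand). The part of this position in the rise of DNAJB4 was not tested.

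Neither cytosolic HSP90 was called. HSP90AA1, the inducible form, stood at 1104, 1114 and 1284 CPM in siMock and at 1151, 982 and 1424 CPM in siFUBP1. HSP90AB1, the constitutive form, stood at 1452, 1457 and 1566 CPM in siMock and at 1598, 1428 and 1898 CPM in siFUBP1. In both genes the groups overlapped, with siFUBP1 replicate 3 the highest of all samples and replicate 2 the lowest. The log2 fold changes were 0.02 (95% interval -0.19 to 0.23, adjusted p = 0.871) and 0.14 (-0.05 to 0.32, adjusted p = 0.210) by edgeR. HSP90AB1 was called higher without siFUBP1 replicate 2 (0.24, adjusted p = 0.0254, edgeR), and the sign of HSP90AA1 turned without siFUBP1 replicate 3 (-0.13) and in several other settings.

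Among the small heat shock proteins, HSPB1 (HSP27), an abundant holdase that also binds actin, had 306, 259 and 226 CPM in siMock and 147, 123 and 139.9 CPM in siFUBP1. HSPB7, known from heart muscle, had 23.9, 23.4 and 21.6 CPM in siMock and 12, 10.3 and 10.2 CPM in siFUBP1. Both were lower in every knockdown sample, with log2 fold changes of -0.95 (SE 0.10, adjusted p = 1.06e-08) and -1.09 (SE 0.12, adjusted p = 9.41e-09) by edgeR. HSPB8, the partner of BAG3 in selective autophagy, fell by 0.33 (SE 0.08, adjusted p = 0.00138, edgeR). HSPB3 was called as well, but on 28, 22 and 12 reads in siMock and 4, 3 and 6 reads in siFUBP1. HSPB11, which works in cilia and is a small heat shock protein mostly by name, had a log2 fold change of -0.20 (adjusted p = 0.0554, edgeR). HSPB3, HSPB8 and HSPB11 fall outside the rule for named genes and were chosen after their values were seen.

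Of the 4 ER genes set against the cytosolic core (HSPA5, HSP90B1, DNAJB9 and DNAJC3), 3 rose. HSPA5 (ENSG00000044574, chromosome 9, 125234853 to 125241330, minus strand), the ER HSP70 that also holds the stress sensors of the ER membrane, stood at 1258, 1098 and 1119 CPM in siMock and at 1323, 1524 and 1366 CPM in siFUBP1. HSP90B1 (GRP94), the ER HSP90, stood at 894, 811 and 892 CPM in siMock and at 993, 966 and 1087 CPM in siFUBP1. DNAJC3 (P58IPK), a J-protein of HSPA5, stood at 108, 108 and 103 CPM in siMock and at 122, 125 and 135 CPM in siFUBP1. In each of the 3 genes the knockdown samples lay above every control, though by a narrow margin for HSPA5. The log2 fold changes were 0.28 (SE 0.09, adjusted p = 0.00712), 0.23 (SE 0.08, adjusted p = 0.0179) and 0.26 (SE 0.08, adjusted p = 0.00440) by edgeR.

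DNAJB9 (ERdj4), which restrains the ER stress sensor IRE1, had 32.9, 26.2 and 25.9 CPM in siMock and 29.2, 30.1 and 28.6 CPM in siFUBP1. Its groups overlapped, and its log2 fold change was 0.05 (95% interval -0.15 to 0.25, adjusted p = 0.712, edgeR). It shares 99 exonic bases with PNPLA8 and 183 with THAP5 on the opposite strand. The larger ER rises were in other members. HSPA13, a small HSP70 of the microsomes, went from 56.1, 55.7 and 61.7 CPM to 106, 107 and 113 CPM, a log2 fold change of 0.91 (SE 0.08, adjusted p = 2.52e-10, edgeR). DNAJC10 (ERdj5), which reduces disulfide bonds and was chosen after its values were seen, rose by 0.55 on the log2 scale (SE 0.08, adjusted p = 2.61e-06, edgeR). DNAJB11 (ERdj3), also chosen after its values were seen, lay below the controls in every knockdown sample with a log2 fold change of -0.19 (adjusted p = 0.0696, edgeR), and with a correction for GC and length it was called lower (-0.38, adjusted p = 0.000253).

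The calls of HSPA5 and HSP90B1 did not hold in every alternative, and were lost in 1 and 3 of 15. HSPA5 was not called without siMock replicate 2 (0.24, adjusted p = 0.0503, edgeR). HSP90B1 was not called without siMock replicate 2 (0.19, adjusted p = 0.110), without siFUBP1 replicate 3 (0.18, adjusted p = 0.0961) or with the GC and length correction (0.05, adjusted p = 0.506). DNAJC3 was called in each alternative run. The 4 ER genes had a median log2 fold change of 0.25, and the 10 cytosolic core members (HSPA8, HSPA1A, HSPA1B, HSPA4, HSPH1, HSP90AA1, HSP90AB1, DNAJA1, DNAJB1 and HSPB1) had -0.85, with 7 lower, 1 higher and 2 not called. This core list was chosen with earlier results of these data known. HSPA1A and HSPA1B, between which the split of reads is uncertain, count as 2 of its falls. All 25 tested members of the cytosol and nucleus had a median of -0.20, and 30.1% of all genes tested were lower. With the GC and length correction the ER median was 0.10 and the cytosolic median -0.72.

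**Figure D2:**
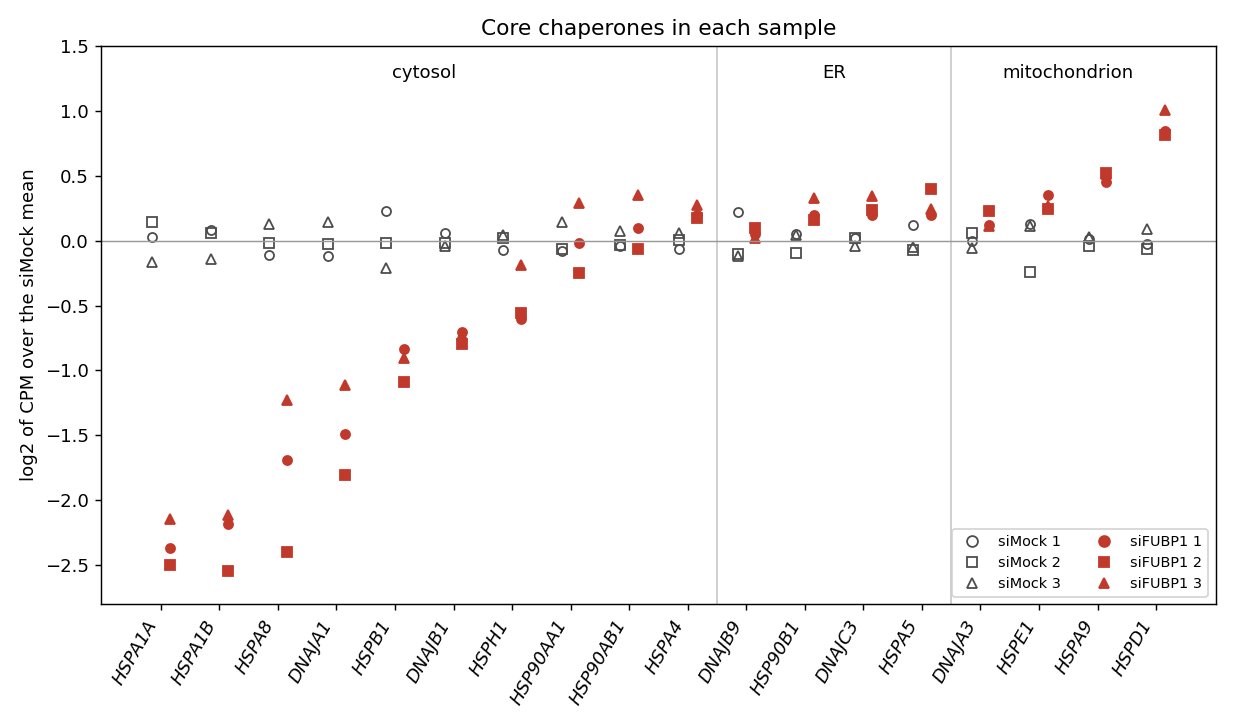
Log2 of each sample's CPM over the siMock mean (y axis) for the core chaperones of the cytosol, the ER and the mitochondrion (x axis), with open grey symbols for siMock and filled red symbols for siFUBP1 and 1 symbol shape per replicate number. The siFUBP1 points of HSPA8 spread from 214 to 481 CPM, while those of HSPD1 all sit above its controls.

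Of the 4 core chaperones of the mitochondrion (HSPD1, HSPA9, HSPE1 and DNAJA3), 3 rose. HSPD1 (HSP60, ENSG00000144381, chromosome 2, 197486581 to 197516737, minus strand), the ring subunit of the chaperonin, stood at 501, 487 and 541 CPM in siMock and at 914, 894 and 1024 CPM in siFUBP1. HSPA9, the HSP70 that pulls precursors into the matrix, stood at 614, 590.0 and 619.6 CPM in siMock and at 830.0, 873 and 866 CPM in siFUBP1. Both groups were tight and wide apart, with log2 fold changes of 0.89 (SE 0.08, adjusted p = 7.78e-10) and 0.49 (SE 0.08, adjusted p = 4.54e-06) by edgeR.

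HSPE1, the lid of the chaperonin, went from 36.2, 28.0 and 35.9 CPM to 42.2, 39.1 and 39.9 CPM. Its rise of 0.28 (SE 0.10, adjusted p = 0.0181, edgeR) was lost without siMock replicate 2 (0.17), without siFUBP1 replicate 1 (0.26) and with the GC and length correction (0.14). HSPE1 shares 281 exonic bases with HSPD1 on the opposite strand at their common promoter. Over the 6 samples HSPD1 held 73715 counts and HSPE1 3712. The 26 pseudogenes of HSPE1 held counts equal to 9.02% of its own. Its value is therefore uncertain, and by how much was not measured. DNAJA3 (TID1), the J-protein of HSPA9, had 115, 119.9 and 111 CPM in siMock and 125, 135 and 125 CPM in siFUBP1. The groups did not overlap, yet the difference of 0.15 (SE 0.08, adjusted p = 0.0856, edgeR) was not called.

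Several DNAJC proteins with tasks outside the stress response were among the largest rises. DNAJC25, a little-studied membrane J-protein, went from 8.52, 8.83 and 7.43 CPM to 19.2, 20.4 and 20.3 CPM (1.27, SE 0.12, adjusted p = 1.85e-09, edgeR). DNAJC6 (auxilin), which recruits HSPA8 to strip clathrin from vesicles, went from 22.4, 24.3 and 26.3 CPM to 43.6, 48.8 and 45.2 CPM (0.91, SE 0.09, adjusted p = 5.42e-09, edgeR). In both, every knockdown sample was well above every control. DNAJC2 (MPP11), which sits on the ribosome as part of the complex that meets nascent chains, went from 68.6, 68.7 and 76.2 CPM to 119.5, 128 and 134 CPM (0.84, SE 0.08, adjusted p = 1.20e-09, edgeR). Its partner in that complex, HSPA14, gave 0.27 (adjusted p = 0.0130) for one record and -0.04 (adjusted p = 0.742) for the other by edgeR, named after its values were seen. The first was not called in 3 of 15 alternatives, and the other changed sign in 3. DNAJC2 shares 628 exonic bases with PMPCB on the opposite strand. DNAJC12, a co-chaperone of the aromatic amino acid hydroxylases, went from 9.80, 8.83 and 11.1 CPM to 15.6, 16.4 and 15.5 CPM (0.68, SE 0.13, adjusted p = 5.85e-05, edgeR).

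The other 8 members were not tested. DNAJB8, DNAJC5B and HSPB2 had 0 counts in every sample, and DNAJC5G had 1 read in all. HSPA6, a strictly heat-induced HSP70, had 5 reads in siMock replicate 1 and at most 1 in each other sample. HSPB6 had 0, 2 and 3 reads in siMock and 8, 12 and 9 reads in siFUBP1. HSPB9 had 1 to 8 reads per sample, and DNAJB7 had 1 to 6.

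Levels can be set against each other in the deposited FPKM, which divides by the exonic length of each gene. For HSPA8 that length is 4849 bases, though its longest coding transcript has 2463, and for HSPA1A both are 2483. Ranks and ratios between genes therefore depend on the length used, while the change of a ratio between groups does not. In siMock the highest members were HSP90AB1 at 495 ± 20.3 FPKM (SD, n = 3), HSPA5 at 293 ± 21.9, HSPA8 at 230.1 ± 19.1, HSP90AA1 at 219.8 ± 18.5 and HSP90B1 at 182 ± 9.62. HSPA8 and HSP90AA1 did not differ beyond their spread. In siFUBP1 HSP90AB1 and HSPA5 still ranked highest, at 547 ± 77.9 and 357 ± 28.1 FPKM, while HSPA8 ranked 8 at 71.3 ± 27.1 FPKM and HSPD1 had moved from rank 7 to rank 4 at 221 ± 16.0 FPKM.

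The ratio of the ER to the cytosolic HSP70 changed accordingly. HSPA5 over HSPA8 in FPKM was 1.5, 1.22 and 1.13 in the siMock samples and 4.69, 8.83 and 3.53 in the siFUBP1 samples. HSPA9 over HSPA8 went from 0.346, 0.311 and 0.296 to 1.39, 2.39 and 1.06. In FPKM the mitochondrial HSP70 thus passed from below to above the cytosolic one in each knockdown sample. Whether it would with transcript lengths was not tested. Most of the change in both ratios came from HSPA8.

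**Figure D3:**
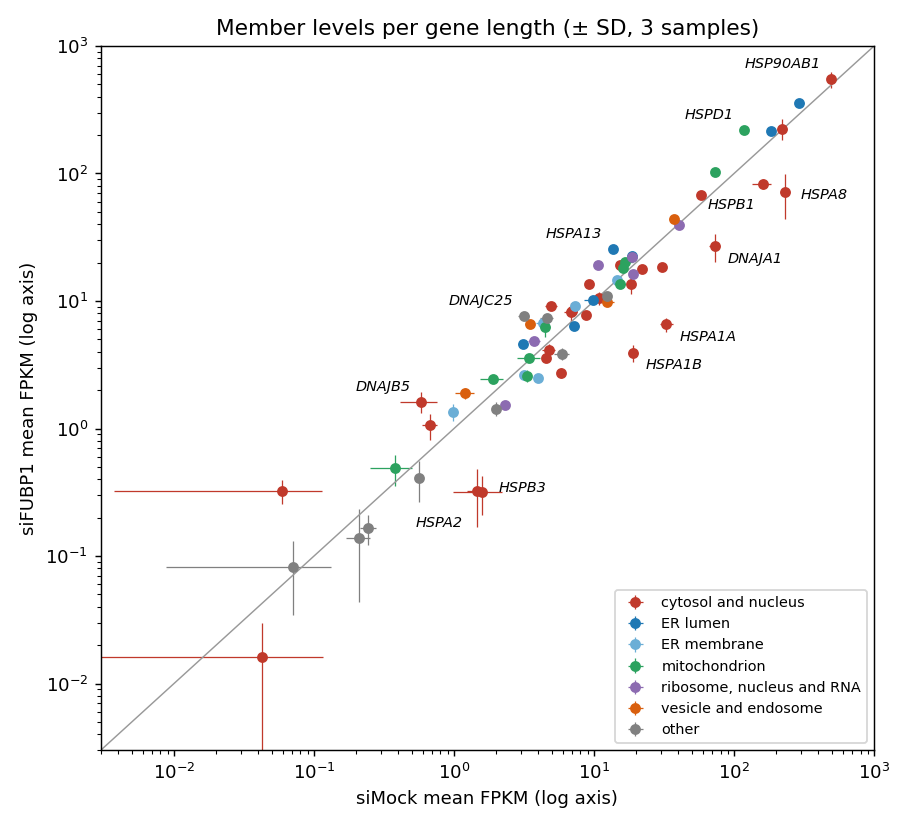
Mean FPKM in siFUBP1 (y axis, log scale) against mean FPKM in siMock (x axis, log scale) for the members with reads in both groups, with SD bars over 3 samples, colours for compartments and a line of equal level. HSPA8, HSPA1A, HSPA1B, HSPB1 and DNAJA1 lie below the line, and HSPD1, HSPA13, DNAJC25 and DNAJB5 lie above it.

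The family as a whole took a like share of the reads in both groups. All 73 members summed to 10459 ± 309 CPM in siMock and to 10775 ± 754 CPM in siFUBP1 (mean ± SD, n = 3). Within that sum, HSPA8, HSPA1A and HSPA1B together went from 1260.1 ± 85.6 to 375 ± 137 CPM. HSPA9 and HSPD1 together went from 1117 ± 42.1 to 1800.3 ± 78.7 CPM, and HSPA5 and HSP90B1 from 2024 ± 123 to 2419.6 ± 91.9 CPM. The cytosolic HSP90 pair stood at 2659 ± 165 and 2827 ± 461 CPM, within its spread.

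The siFUBP1 samples differed among themselves in the cytosolic set. Replicate 3 was the highest of the 3 in 8 of the 10 cytosolic core members, and replicate 2 was the lowest in 9 of them. Over all 65 tested members, replicate 3 was the highest in 35 and replicate 2 the lowest in 30. Over all 16116 genes tested, replicate 3 was the highest in 35.8% and replicate 2 the lowest in 5524. FUBP1 itself was highest in replicate 3 (53.0 CPM) and lowest in replicate 2 (43.4 CPM), and the part of this in the chaperone values was not tested. HSPA8 was at 481 CPM in replicate 3 and 214 CPM in replicate 2, and it stayed called with either left out. With any 1 of the 6 samples left out, its adjusted p was at most 0.0471 (edgeR), close to the threshold.

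Members that carry a heat shock element did not share a direction. Of the 6 tested with a 3-unit element, 3 fell (HSPA8, DNAJA1 and DNAJB6), 1 rose (HSPD1) and both HSP90 genes were not called. Of the 19 tested with a 2-unit element, 11 fell (57.9%) and 5 rose (26.3%), against 30.1% of all genes in each direction, with a median log2 fold change of -0.33. HSPA1A and HSPA1L share the same match (chromosome 6, 31815437 to 31815444), so that site counts under a fall and under a rise. HSPA1A and HSPA1B, between which the split of reads is uncertain, both count among the falls. HSPA5 and HSP90B1, the carriers of an ER stress element printed above, both rose. DNAJB6, a J-protein against amyloid aggregates chosen after its values were seen, fell by 0.18 (adjusted p = 0.0447, edgeR), was not called in 9 of 15 alternatives and turned to 0.08 with the GC and length correction.

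The genes that work with the family were looked up in lists chosen with earlier results of these data known. The list of heat shock factors held 4 genes: HSF1, HSF2, HSF4 and the binding protein HSBP1. Of these, HSF2 rose, from 21.6, 17.2 and 21.3 CPM to 30.0, 29.1 and 31.2 CPM (0.59, SE 0.10, adjusted p = 2.51e-05, edgeR). HSF1, the factor of the heat shock response, had 88.7, 85.7 and 79.0 CPM in siMock and 76.3, 80.1 and 71.7 CPM in siFUBP1, which overlap (-0.15, adjusted p = 0.108, edgeR). With the GC and length correction HSF1 turned sign and was called higher (0.22, adjusted p = 0.00339, edgeR). HSF4 and HSBP1 were not called. Transcript levels of HSF1 do not measure its activity.

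Of 12 cofactors of HSP70, 4 rose and 4 fell (33.3% each), near the 30.1% of all genes in each direction, with a median log2 fold change of 0.09. The largest rises were in the exchange factors GRPEL2 (0.85) of the mitochondrion and SIL1 (0.58) of the ER, and in BAG2 (0.48). The largest falls were in BAG3 (-0.61) and BAG1 (-0.49), which act on the cytosolic HSP70, and in STUB1 (-0.47), the ubiquitin ligase CHIP, which was not called with the GC and length correction (-0.16, adjusted p = 0.101, edgeR). The remaining gene of each direction, GRPEL1 (0.47) and BAG4 (-0.23), is named after its value was seen, and BAG4 was not called in 7 of 15 alternatives. BAG3 went from 88.1, 82.6 and 75.6 CPM to 51.7, 51.6 and 58.3 CPM. Of 15 cofactors of HSP90, 7 rose (46.7%) and 4 fell (26.7%), with a median of 0.17. The prolyl isomerase PPID rose most (0.65), and CHORDC1 fell most (-0.72).

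Of 15 genes of ER folding and ER-associated degradation, 5 rose (33.3%) and 2 fell (13.3%), with a median of 0.07, so the share that rose was near the 30.1% of all genes. HERPUD1 (0.72), MANF (0.54) and PDIA4 (0.49) rose, while EDEM1 (-0.72) and PDIA6 (-0.19) fell, and PDIA6 was not called in 8 of 15 alternatives. Of 8 sensors and factors of the unfolded protein response, 7 rose, with a median of 0.77. ATF6, named after its values were seen, was not called (0.20, adjusted p = 0.0564, edgeR), nor in 10 of 15 alternatives. DDIT3 (CHOP), a factor induced by ATF4, went from 12.3, 7.89 and 7.94 CPM to 86.5, 88.6 and 64.4 CPM (3.09, SE 0.17, adjusted p = 1.60e-08, edgeR). PPP1R15A (2.57) and ATF4 (1.19) rose as well. The ER chaperone HSPA5 differed by 0.28 in the same samples.

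Of 6 relatives that the family rule leaves out, 5 were tested, and SEC63 (0.72) and HSCB (0.53) rose while SERPINH1 (-0.34) fell. CRYAB, a small heat shock protein by another name, had too few reads to be tested.

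**Figure D4:**
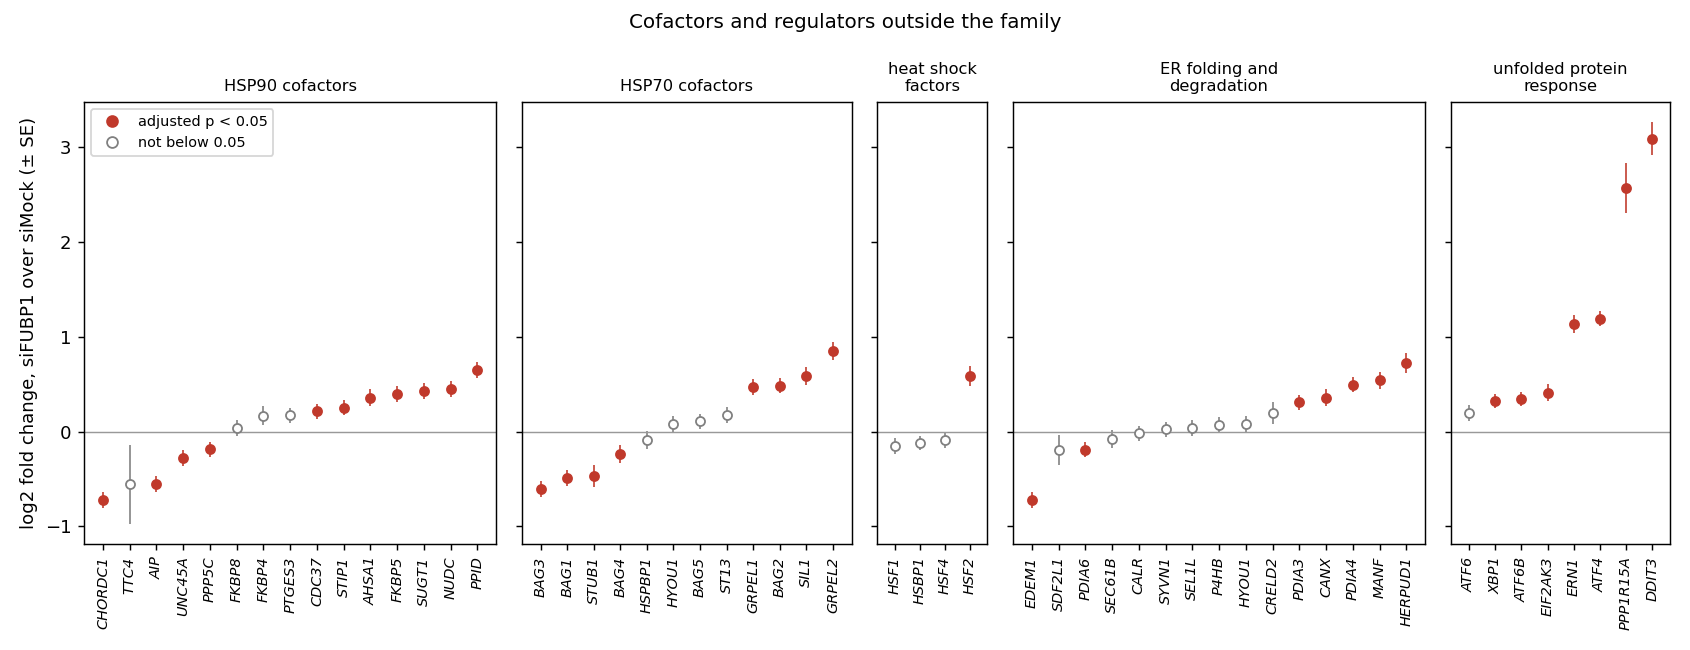
Log2 fold change of siFUBP1 over siMock (y axis) with its standard error for each gene (x axis) of 5 lists outside the family. Filled red points were called at an adjusted p below 0.05 by edgeR, and the unfolded protein response panel holds the largest rise, DDIT3 at 3.09.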

How the data were processed

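RNA-seq libraries (poly-T selection, NEBNext Ultra kit) came from 6 samples, grouped by their titles. The authors deposited raw read counts per gene and FPKM values scaled by gene length and library. The submitters' processing notes list HISAT2 2.0.5, StringTie 1.3.3b, featureCounts 1.5.0-p3 and DESeq2 1.16.1 without their roles, and strand use in counting is not given in the sources used here. Genes match GENCODE 29 (GRCh38) in position. The deposited log2 fold changes, p-values and group mean signal columns, 5 in all, hold the authors' own comparison and were not used. Counts were tested with edgeR 4.0.16 (R 4.3.3): TMM, filterByExpr, robust quasi-likelihood F test, Benjamini-Hochberg over 16116 genes, called at an adjusted p below 0.05. TMM factors were 0.959 to 1.05. No 2 samples were copies of each other (chi-square per gene at least 5.83). Alternatives were other scalings, no filter, DESeq2 1.42.0, limma 3.58.1 on log2(FPKM + 1) and log2(FPKM + 0.1), a replicate block, a GC and length correction, and leaving out each sample. A last alternative counted HSPA1A and HSPA1B as a single gene. It is among the 15 of every other gene but shifted the median of all genes by only -7.14e-05, so it hardly tests them. On simulated data with 199 of 15806 genes changed, the test recovered 88% of log2 fold changes of 1 in size and made 9 false calls. That share is far below the 60.2% of genes called here, so false calls under such wide change were not tested. With a GC trend added to the simulated siFUBP1 samples, the test made 7871 false calls among 15795 genes, against 17 with the GC and length correction. The size of that trend was set by hand and was not fitted to these samples. Sequences and promoters are from RefSeq (GRCh38.p14). Members and lists were chosen with earlier results of these data known. Named members are the core lists, the 8 largest rises and falls among called members averaging 20 counts or more, and the 5 highest in siMock FPKM. From other lists at most 3 genes per direction are named with values. A gene of the list of relatives is not reported here.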

Additional observations from a re-analysis of the deposited data

How the results depend on the processing

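Of the member counts, list medians and FUBP1 under the alternatives, 91 values kept their direction and stayed within their limits, and 7 moved. Members higher by more than 1 on the log2 scale were 4 with library size only and 1 with limma on log2(FPKM + 1), and members lower by more than 1 were 4 with the latter. The median of the ER genes was 0.34 with library size only, which shifts the median of all genes by 0.10, and 0.10 with the GC and length correction. The median of the cytosolic core was -0.75 and -0.72 in these settings. Higher and lower members were 31 and 18 with library size only, and 24 and 25 with the GC and length correction. Of the 27 members named by rule, 358 values were on the same side of the threshold, 10 lost their call, 5 gained one and 7 turned sign. Over all 65 tested members, 7 turned sign in at least 1 alternative (DNAJB6, DNAJB9, DNAJB12, DNAJC4, DNAJC8, HSP90AA1 and a record of HSPA14), and 15 of the 48 called lost their call in at least 1. DNAJB9 turned to -0.16 with the GC and length correction, and HSP90AA1 to -0.051. Without 1 sample, DNAJB9 ranged from -0.017 (without siMock replicate 3) to 0.16 and was also below 0 without siMock replicate 2. HSP90AA1 ranged from -0.13 (without siFUBP1 replicate 3) to 0.15 and was also below 0 without siMock replicate 1 or 2. The cause was not tested. Leaving out 1 sample gave between 41 and 47 called members. Deviations of same-numbered samples had correlations of -0.0047, 0.017 and 0.12, where pairs of unlike number ranged from -0.092 to 0.074. Weak correlations from so few samples cannot exclude a pairing by number, and the main test used none. The replicate block called 29 members higher and 24 lower, with FUBP1 at -2.45, and among the named members it changed the call of DNAJA3 alone (0.15, adjusted p = 0.0424, edgeR).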
